A study of Mus musculus with 28 samples.

Results

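The brain response to a nicotine-induced seizure was measured in mice that carry the L250T change in the alpha7 nicotinic acetylcholine receptor. The comparison uses 10 of the 28 mice of the series: 5 heterozygous (+/T) animals killed 1 hour after the seizure and 5 heterozygous animals that received nothing. They were chosen by genotype and treatment as the labels give them. Total RNA from each whole brain was hybridised to its own Affymetrix U74Av2 array, an oligonucleotide array that reads each transcript with 1 or more probe sets, so every replicate is a mouse. All 28 mice are labelled C57BL/6J. The 5 seized alpha7 +/T mice were 8 weeks old (3 females, 2 males). Of the 5 untreated ones (2 females, 3 males), 4 were 6 weeks old and 1, untreated mouse 5, was 8 weeks old. The other genotypes served for comparison: wild-type mice (6 untreated, aged 6 to 9 weeks, and 3 seized, aged 7 to 8 weeks) and mice without the beta4 receptor subunit (5 untreated, aged 6 to 9 weeks, and 4 seized, aged 7 to 8 weeks). Each genotype received its own nicotine dose, chosen so that seizures scored alike, so genotype and dose differ together, and the amounts are not known here. No mouse was injected without a seizure, and nicotine, injection, handling and seizure therefore cannot be told apart in any value below.

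The alpha7 subunit forms a pentameric cation channel that is abundant in hippocampus and cortex, opens with nicotine and admits calcium. The L250T substitution lies in the channel pore, slows desensitisation and raises the response to agonist, and mice with 1 altered copy seize at lower nicotine doses. Strong neuronal firing and calcium entry start a wave of immediate early genes, such as Fos and Nr4a1, through transcription factors that are already present (CREB at CRE elements, SRF at serum response elements). The stress of a seizure also releases glucocorticoids, which act through their own receptor on genes such as Sgk1 and Per1.

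The 10 arrays fall into a low and a high class by the ratio of the 3 prime to the 5 prime signal of the Gapdh control, which reads how far the labelled RNA extends toward its 5 prime end. Untreated mice 3 and 4 and seized mice 1, 2 and 3 lie in the low class (log2 ratio below 0.5), and untreated mice 1, 2 and 5 and seized mice 4 and 5 in the high one. The mean log2 ratio was 0.46 in seized and 1.28 in untreated mice, a difference of -0.82 with an exact two-sided permutation p of 0.214. Inside each class the seized mice were lower without overlap (difference of means -0.35 in the low and -0.41 in the high class), and the part of this in the results was not tested beyond the alternative fits. Class was a term of the model. Seized mouse 2 stood apart by pituitary transcripts. Its signals were 6111 for growth hormone (Gh), 4235 for prolactin (Prl), 444 for Pomc and 255 for Cga, while the other 9 mice reached at most 124, 68.9, 58.1 and 50.8. Untreated mouse 5 stood apart by age. Set between the other high-class untreated mice and the high-class seized mice, it was nearer to the seized mice for 382 of the 573 probe sets that rose (66.7%) and 269 of the 405 that fell (66.4%), against 62.8% of all 7350 tested.

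With array class in the model, 978 of 7350 probe sets differed between seized and untreated alpha7 +/T mice at an adjusted p under 0.05 (limma, Benjamini-Hochberg), which is 13.3% of those tested. Of these, 573 rose (7.8%) and 405 fell (5.51%), and 2067 had an unadjusted p under 0.05. The median change of all probe sets was 0.00 on the log2 scale, that of the risen 0.61 and that of the fallen -0.62. Only 65 of the risen and 72 of the fallen changed by more than 1 on the log2 scale, so most of the changes were small. The signals of the groups of 5 did not overlap for 217 probe sets (2.95% of those tested), 120 with all seized mice above (1.63%) and 97 with all below (1.32%), and 102 and 77 of these were among the risen and the fallen. Counted by gene, with the brightest probe set standing for each, 764 of 5599 passed (13.6%), of which 440 rose (7.86%) and 324 fell (5.79%). These counts moved with the model and with single mice. Without the class term 206 probe sets passed (2.8%), with age in weeks as a further term 84 passed (1.14%), and the count was 502 without untreated mouse 3, 651 without untreated mouse 4, 590 without seized mouse 5 and 1520 without untreated mouse 5. Without seized mouse 2 it was 915, of which 787 were among the 978.

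Among immediate early transcription factors, 8 of 20 measured members rose and none fell, where 7.86% of all genes rose, and the median change was 0.53 against 0.00 over all genes. Fos, which pairs with Jun proteins to form AP-1, had a signal of 97.6, 234, 149.7, 54.4 and 399 in untreated mice 1 to 5 and of 834, 895, 655, 765 and 1067 in seized mice 1 to 5. Every seized mouse lay above every untreated one, and the 8-week-old untreated mouse 5 was the highest of its group. The change was 2.52 ± 0.35 (log2, SE), or 5.73-fold, with an adjusted p of 0.00015 by limma. In bulk tissue, fewer or more cells of a type and less or more RNA per cell cannot be told apart.

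Klf10, a zinc finger factor first known as an early gene of TGF-beta signalling, varied little within either group. Its signal was 114, 127, 112, 111 and 122 in the untreated and 308, 296, 273, 286 and 282 in the seized mice. The groups were separated by more than the whole spread of either, in both array classes, with a change of 1.28 ± 0.13 (adjusted p = 7e-07 by limma). A second probe set gave 1.17 (adjusted p = 1.2e-05 by limma). Nr4a1, an orphan nuclear receptor induced by calcium and cyclic AMP, read 109.8, 207, 230.1, 123 and 184 before and 477, 439.7, 437, 517 and 441 after the seizure. Again no seized mouse reached down to the untreated range, and the change was 1.47 ± 0.24.

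The sequences before the start sites of Fos and Nr4a1 are shown because both genes are textbook CREB targets and rose together. Letters are the 250 bases before the start from the RefSeq promoter table (GRCm38.p6, plus strand), and capitals mark the CRE core TGACGT in Fos and the CRE-like run TGCGTCA in Nr4a1, searched on both strands. Fos lies at chr12:85473640-85473889 and Nr4a1 at chr15:101266596-101266845.
Fos: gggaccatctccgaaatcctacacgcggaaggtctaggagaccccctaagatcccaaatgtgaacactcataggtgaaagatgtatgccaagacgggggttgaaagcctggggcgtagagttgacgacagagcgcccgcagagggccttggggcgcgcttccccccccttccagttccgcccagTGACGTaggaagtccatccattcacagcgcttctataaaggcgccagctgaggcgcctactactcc
Nr4a1: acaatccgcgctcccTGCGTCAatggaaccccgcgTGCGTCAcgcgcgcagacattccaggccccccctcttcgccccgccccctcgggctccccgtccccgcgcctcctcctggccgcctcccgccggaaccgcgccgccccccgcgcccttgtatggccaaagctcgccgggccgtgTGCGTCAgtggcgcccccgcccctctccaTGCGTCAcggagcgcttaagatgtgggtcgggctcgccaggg
The Fos window holds the core once, with its first base at -66 from the start. Nr4a1 holds its run 4 times, at -235, -215, -71 and -42. Among all 32851 windows of this length the core TGACGT occurs in 6.47% and TGCGTCA in 1.75%. Of the 16 early-gene list members with a window, 5 hold the core and 3 hold TGCGTCA, and some genes have several windows. A match describes letters and not a bound site, and these motifs were picked with the windows in view.

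Fosb, a relative of Fos that also pairs with Jun proteins, rose by 1.02 ± 0.22 (adjusted p = 0.004 by limma). It ranged from 105 to 244 in untreated and from 242 to 528 in seized mice, and 1 untreated mouse overlapped. Egr2, a zinc finger factor of the Egr family, rose by 1.31 ± 0.27, from 48.8 to 128 up to 146 to 271, and Atf3, a stress-induced partner of AP-1, by 0.98 ± 0.26, from 32.6 to 58.2 up to 72.3 to 103. The groups did not overlap for either. Klf4 rose by 1.11 ± 0.21 and Jund, an AP-1 subunit with high resting levels, by 0.49 ± 0.14. Egr1 and Junb, common markers of seizure activity, did not pass. Egr1 read 485, 643, 523, 537 and 583 against 726, 769, 672, 535 and 864, a difference of 0.34 ± 0.15 with an adjusted p of 0.12 by limma, and 4 of 5 seized mice were above every untreated one. Junb differed by 0.60 ± 0.29 (adjusted p = 0.18 by limma), and a dimmer probe set of the gene gave 1.50 (adjusted p = 0.037 by limma). Its value differed between classes, 1.26 in the low and 0.03 in the high, although the test of that difference gave an adjusted p of 0.39 by limma. Arc and Npas4 were not analysed here.

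**Figure D1:**
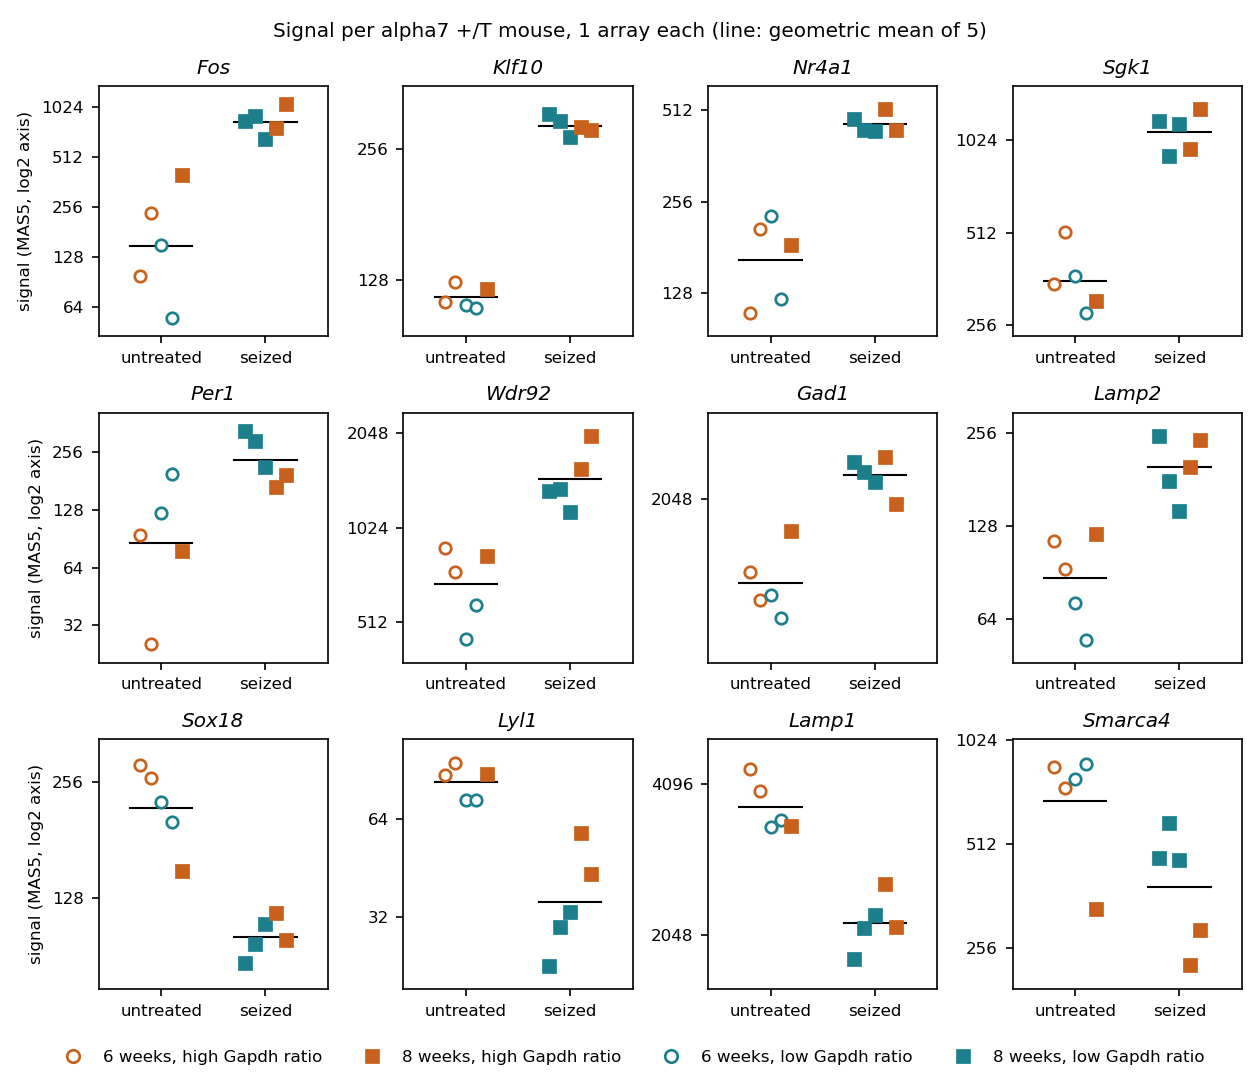
Signal of 12 genes in each alpha7 +/T mouse (MAS5 signal on a log2 axis, 1 array per mouse; horizontal line, geometric mean of 5; open circles 6 weeks, filled squares 8 weeks; colour gives the Gapdh ratio class). Klf10 separates the groups cleanly (at most 127 against at least 273), while the 8-week-old untreated mouse lies toward the seized mice for Fos (399), Sox18 (150.0) and Smarca4 (332).

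Among activity-regulated effectors, the enzymes and secreted proteins that early factors and calcium induce, 3 of 11 measured genes rose and none fell (median 0.27), where 7.86% of all genes rose. Sgk1, a kinase that acts on ion channels and transporters, was 349, 516, 369.6, 279.6 and 305 in the untreated and 1180.2, 910.3, 1159, 959.9 and 1296 in the seized mice. The lowest seized mouse was well above the highest untreated one, and the change was 1.69 ± 0.28, or 3.23-fold (adjusted p = 0.00072 by limma). Rgs2, which switches off Gq-coupled signalling, rose by 1.13 ± 0.19, with 1 untreated value (176) above the lowest seized one (167). Gadd45b, a growth-arrest gene linked to DNA demethylation in neurons, rose by 0.81 ± 0.22, while a second probe set of it gave -0.03 and did not pass. Bdnf, the neurotrophin most often followed after seizures, differed by 0.00 ± 0.17, Ptgs2 (cyclooxygenase) by 0.35 ± 0.44 and Plk2 by 0.27 ± 0.14, and none of these passed. Genes that damp MAP kinase signalling moved unevenly: Errfi1, an inhibitor of the EGF receptor, rose by 0.90 ± 0.16 and Spred2 by 0.45 ± 0.15, Dusp8 fell by 0.81 ± 0.26, and the other 5 of 8 did not pass, Dusp1 (0.83 ± 0.30, adjusted p = 0.062 by limma) among them. Second probe sets of Errfi1 (0.47) and Dusp8 (-0.45) did not pass.

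Glucocorticoid-responsive genes formed the largest risen share of the lists examined. Of 23 measured members 10 rose and none fell, where 7.86% of all genes rose, with a median change of 0.52. With age as a further term 4 rose, where 52 of all 5599 genes rose in that fit. They share Sgk1 and Errfi1 with the lists above and add Per1, Tiparp, Cebpd, Zbtb16, Glul, Ddit4, Klf9 and Pdk4. Per1, a clock gene that glucocorticoids and CREB both induce, read 94.3, 25.6, 123, 198 and 78.6 before and 329, 292, 213, 168 and 194 after, a change of 1.29 ± 0.26. The highest untreated mouse (198) exceeded 2 of the seized ones. Ddit4, an inhibitor of mTOR signalling, rose from between 229 and 279 to between 292 and 429.7 with no overlap (0.51 ± 0.16), and Cebpd, a C/EBP factor of the acute stress response, by 0.68 ± 0.18. Pdk4, which restrains pyruvate use, rose by 0.87 ± 0.29, and Glul, the glutamine synthetase of astrocytes, by 0.88 ± 0.26. Other members often used as hormone reporters did not pass, with Fkbp5 at 0.42 ± 0.18, Mt1 at -0.09 ± 0.15 and Mt2 at 0.13 ± 0.14.

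The windows of Sgk1 and Per1 are shown because both genes rose and are textbook targets of the glucocorticoid receptor. From 6 Sgk1 windows and 2 Per1 windows in the RefSeq table, those holding a full palindromic glucocorticoid response element (AGAACA and TGTTCT with 3 bases between) or the CRE core were taken. The Sgk1 window at chr10:21993640-21993889 has in capitals that element, first base at -189, and a CACGTG E-box at -246, and the Per1 window at chr11:69099902-69100151 has TGACGT in capitals at -132 (GRCm38.p6, plus strand).
Sgk1: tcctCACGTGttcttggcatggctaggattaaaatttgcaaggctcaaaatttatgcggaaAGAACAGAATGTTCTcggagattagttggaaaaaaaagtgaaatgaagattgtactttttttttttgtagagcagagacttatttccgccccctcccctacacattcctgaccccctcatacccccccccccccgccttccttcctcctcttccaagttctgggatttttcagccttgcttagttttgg
Per1: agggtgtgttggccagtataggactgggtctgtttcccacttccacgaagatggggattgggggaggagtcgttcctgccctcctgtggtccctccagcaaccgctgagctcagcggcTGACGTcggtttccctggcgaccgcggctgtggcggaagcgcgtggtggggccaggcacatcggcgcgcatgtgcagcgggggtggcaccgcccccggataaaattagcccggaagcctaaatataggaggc
The palindrome in this spelling occurs in 3 of all 32851 windows, and among the 19 glucocorticoid list members with a window it was found for Sgk1 only. CACGTG occurs in 6.02% of all windows. No match elsewhere says only that these letters are not in those 250 bases.

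Clock genes overlapped that list through Per1. Of 17 measured members 6 rose and none fell, where 7.86% of all genes rose, although the median was 0.13. With age as a further term 3 rose, where 52 of all 5599 genes rose in that fit. Nr1d2, a repressor that responds to haem, read 191, 276, 219, 170.4 and 229 in untreated and 471, 476, 362, 273 and 325 in seized mice, and rose by 0.75 ± 0.16. Bhlhe40, an E-box repressor that is also induced by activity, rose by 0.79 ± 0.18 from between 146 and 219.5 to between 279 and 409.7, without overlap. Per2 rose by 0.83 ± 0.23, Nr1d1 by 0.80 ± 0.24 and Clock by 0.52 ± 0.17. Arntl (0.13 ± 0.19), Cry1 (0.15 ± 0.13) and Dbp (-0.17 ± 0.36) did not pass. The labels give no time of day for the mice, and its part in these values was not tested.

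Several of the best separated risen genes belong to none of these programmes. Wdr92, a WD-repeat protein needed to assemble ciliary dynein, had the smallest p of all probe sets: 880.4, 741, 452, 579.9 and 833 in untreated and 1345, 1357, 1146, 1572 and 2009 in seized mice, a change of 1.21 ± 0.12 (adjusted p = 4.7e-07 by limma). Its untreated values were higher on high-class arrays and so were its seized values, and the groups did not overlap in either class. Eif1a, a factor that helps the ribosome find the start codon, rose by 1.05 ± 0.15, and its second probe set gave 1.04. Ak4, a mitochondrial adenylate kinase, rose by 0.87 ± 0.13 from between 84.1 and 98 to between 147 and 204, while a second probe set of it gave 0.54 and did not pass. Sdcbp (syntenin, a PDZ adaptor of membrane trafficking) rose by 1.15 ± 0.18, Lamp2, a lysosomal membrane protein, by 1.22 ± 0.20, and Vps35, the core of the retromer, by 0.74 ± 0.12. The dimmer Lamp2 probe set gave 0.49 and did not pass. Pag1, a membrane adaptor that recruits the kinase Csk, rose by 1.07 ± 0.17 and the zinc finger gene Zfp644 by 0.57 ± 0.09, in each case with 1 or more untreated values inside the seized range. For all 12 risen and all 12 fallen genes of smallest adjusted p the call held when each of the 28 mice was left out in turn. Under the other models it held less often, in 14 to 20 of 21 for each gene. Of these 24 only Wdr92 passed in mice of 7 weeks or older, and none of the 12 fallen genes passed with a term for 6 weeks against older.

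The fallen genes were led by Sox18, a transcription factor of endothelial cells. Its signal was 284, 262, 227, 202 and 150.0 in untreated mice and 86.2, 97.1, 109, 117 and 99 in seized mice, a change of -1.11 ± 0.17 (adjusted p = 0.00039 by limma), and a second probe set gave -0.78. The untreated mouse nearest to the seized ones was again mouse 5. Lyl1, a helix-loop-helix factor of blood and endothelial cells, read 87, 95.1, 73, 73.4 and 88.1 against 22.7, 29.8, 33.2, 58.2 and 43.3, a change of -1.11 ± 0.20. Here mouse 5 lay with the other untreated mice and the groups did not overlap. Cldn5, the tight junction claudin of brain capillaries, fell by 1.28 ± 0.29 from between 297 and 704 to between 157 and 239. Eng (endoglin) fell by 0.82 ± 0.17 from between 466 and 762 to between 262 and 456, and Sox17 by 0.59 ± 0.20.

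Across the 15 measured markers of endothelium and pericytes, 5 fell and 2 rose, where 5.79% of all genes fell and 7.86% rose, and the median change was -0.39. The risen members were Rgs5, a pericyte regulator of G protein signalling (1.21 ± 0.21), and Acta2, the actin of smooth muscle (0.64 ± 0.17). A dimmer Rgs5 probe set gave 2.11. Rgs5 had its larger values on low-class arrays, where it read 179, 122 and 188 in seized and 35.4 and 54.8 in untreated mice, against 66.6 and 56.5 and between 30.1 and 43.9 on high-class arrays. Other endothelial markers did not pass, among them Pecam1 at -0.56 ± 0.37, Kdr at -0.55 ± 0.35, Flt1 at -0.19 ± 0.14 and Cdh5 at 0.13 ± 0.20. The summed signal of all 15 markers was 1793 to 2591 in untreated and 1424 to 1679 in seized mice, ranges that did not overlap. The gap lay in the 5 fallen genes (1130 to 1990 against 587 to 905), which were called on these same arrays. The other 10 summed to 601 to 1046 in untreated and 694 to 1091 in seized mice, and these ranges overlapped. The part of cell number in this was not tested. With age as a further term 2 of the 15 fell and 1 rose, where 17 of all 5599 genes fell and 52 rose in that fit.

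Other fallen genes covered diverse functions. Lamp1, the abundant lysosomal membrane protein, read 4374, 3967, 3357, 3469.6 and 3377 in untreated and 1837, 2121, 2249, 2584 and 2126 in seized mice, a fall of 0.70 ± 0.13 in the direction opposite to Lamp2. Hexa, a lysosomal hexosaminidase subunit, fell by 0.80 ± 0.14 and Esrra, a nuclear receptor for mitochondrial genes, by 0.94 ± 0.15, both with overlap, and a second Esrra probe set gave 0.01 and did not pass. Gnao1, the alpha subunit of the neuronal G protein Go, fell by 0.64 ± 0.12 with no overlap, although its 3 other probe sets did not pass. Stk16, a kinase of the Golgi, fell by 0.66 ± 0.12 from between 169 and 250.5 to between 115 and 138. Dlg4 (PSD-95, the scaffold of excitatory synapses) fell by 1.01 ± 0.19 and Smarca4, the Brg1 ATPase of chromatin remodelling, by 0.96 ± 0.18, but the spread between classes was wide for Dlg4 (139 to 921 over the 10 mice) and mouse 5 lay inside the seized range for both. Rnf8, Ube2s and Ginm1 fell by 0.75 ± 0.13, 1.31 ± 0.24 and 1.41 ± 0.27.

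**Figure D2:**
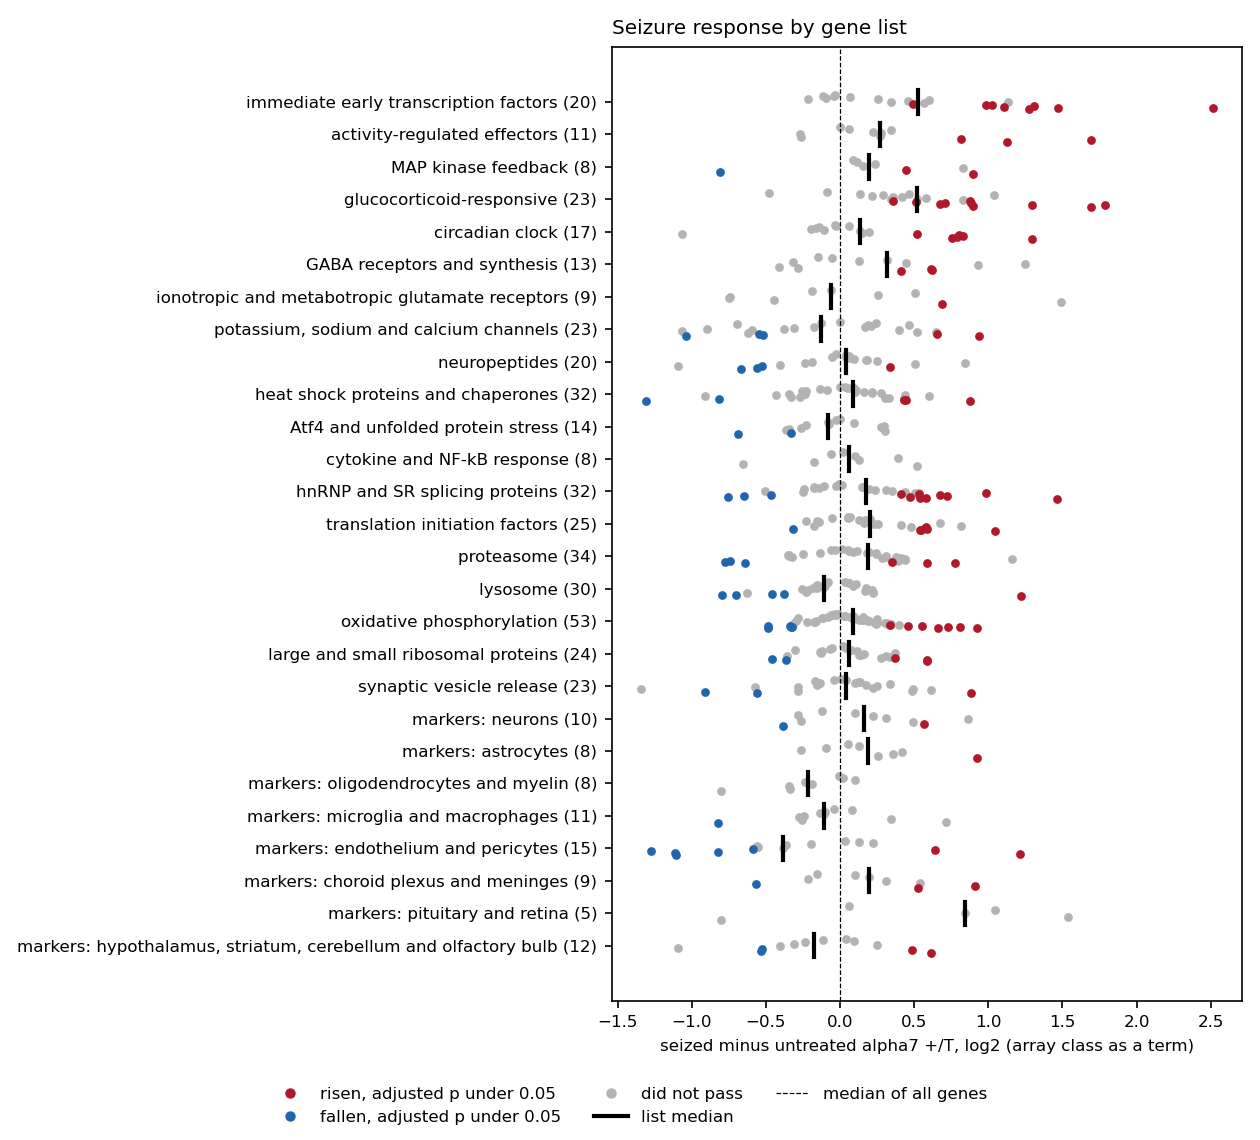
Change of each measured member of the gene lists with at least 5 measured genes between seized and untreated alpha7 +/T mice (x axis, log2 with array class as a term; the number of measured genes in brackets; red risen, blue fallen, grey did not pass; black bar, list median; dashed line, median of all genes). Early transcription factors and glucocorticoid-responsive genes have medians of 0.53 and 0.52, and endothelial markers a median of -0.39.

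Of the receptor, channel and transmitter lists, 23.1% of the GABA, 21.7% of the channel, 20% of the neuropeptide and 11.1% of the glutamate receptor genes passed. Over all genes 13.6% did (7.86% risen, 5.79% fallen), and these lists are short. The receptor gene that carries the mutation, Chrna7, did not pass: 18.3, 111, 134, 91 and 62.5 against 121, 89.3, 78.9, 94.3 and 30.7, a difference of -0.03 ± 0.34 whose sign turned positive in the fits without class, with age or with sex. The array does not tell the mutated from the normal copy. Of 13 genes of GABA signalling 3 rose. Gad1, the enzyme that makes most GABA, went from 1694, 1577, 1598, 1505 and 1886 to 2257, 2198, 2144, 2284 and 2024 without overlap, a small but even rise of 0.41 ± 0.08 (adjusted p = 0.0017 by limma). The chloride importer Slc12a2 and the granule cell receptor subunit Gabra6 rose by 0.62 ± 0.16 and 0.61 ± 0.17, and Slc12a2 was highest of all 10 mice in untreated mouse 5 (998). Of 23 potassium, sodium and calcium channel genes 2 rose (Kcnd2, 0.94 ± 0.18, and Scn1a, 0.66 ± 0.17) and 3 fell (Kcnk1, -1.04 ± 0.21, Cacna1c, -0.52 ± 0.13, and Scn8a, -0.55 ± 0.18). Among 9 glutamate receptor genes Gria1 alone rose, and among 20 neuropeptide and granin genes Scg2 rose (0.33 ± 0.11) and Cck, Chga and Hcrt fell.

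RNA processing and protein turnover contributed several members in either direction. Of 32 splicing proteins 9 rose and 3 fell (median 0.17), which is 37.5% against 13.6% of all genes. With age as a further term 1 of the 32 rose and none fell, where 52 of all 5599 genes rose and 17 fell in that fit. Hnrnph2 rose from between 33.9 and 104 to between 110.1 and 263 (1.46 ± 0.26) and Hnrnpk from between 231 and 269 to between 307 and 449 (0.58 ± 0.11), both without overlap. Hnrnpm fell by 0.75 ± 0.16. Of 25 translation initiation factors 6 rose and 1 fell, of 34 proteasome subunits 3 rose (Psma2, Psma3, Psma4) and 3 fell (Psmd3, Psmd4, Psmd9), and of 30 lysosomal genes 1 rose and 4 fell. Oxidative phosphorylation (7 of 53 risen, 5 fallen), heat shock proteins (3 of 32 and 2), ribosomal proteins (3 of 24 and 2) and synaptic vesicle genes (1 of 23 and 2) had medians between 0.04 and 0.09. None of 8 cytokine genes passed, and of 14 Atf4 and unfolded protein genes none rose and 2 fell.

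Markers checked the tissue and its cell mix. Of 10 neuronal markers on the array 8 lay above their array's median on all 28 arrays, as did 7 of 9 astrocyte and 7 of 9 myelin markers. The summed neuronal signal was 10522 to 14101 in untreated and 12297 to 15670 in seized mice, and the myelin sum 6937 to 10958 and 6954 to 8465, so these ranges overlapped. The sum over all 17 endothelial and pericyte markers on the array was 1883 to 2633 and 1482 to 1762, without overlap, and includes the 5 fallen genes. The sum of the 10 other measured ones did overlap (601 to 1046 and 694 to 1091). Over all genes 7.86% rose, 5.79% fell and 13.6% passed in either direction. Of 10 measured neuronal markers 1 rose (Stmn2) and 1 fell (Nefh), which is 20%. Of 8 astrocyte genes 1 rose (Aqp4, 0.93 ± 0.25), which is 12.5%, and 0 of 8 myelin genes passed. Of 11 microglial genes 1 fell (9.09%), Irf8, by -0.83 ± 0.20 from between 48.1 and 73.1 to between 23.3 and 36.6. The sum of pituitary and retinal markers was 343 to 445 in untreated and 341 to 11296 in seized mice, the upper value being seized mouse 2. None of the 3 measured blood markers passed. Of 9 choroid plexus and meningeal markers 2 rose (Kl, Dcn) and 1 fell (Col1a1), which is 33.3% against 13.6% of all genes. Of 12 genes that mark hypothalamus, striatum, cerebellum or olfactory bulb 2 rose (Gabra6, Zic1) and 2 fell (Hcrt, Cbln1), also 33.3%. Of the 3 measured cholinergic genes Ache, which breaks down acetylcholine, fell.

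Age moved with treatment and was examined in 3 ways. With age in weeks added, 84 probe sets passed (63 risen, 0.857%, and 21 fallen, 0.286%), 83 of them among the 978, and 1175 had an unadjusted p under 0.05. Without untreated mouse 3, 4 or 5 the count was 17, 33 or 403. All 573 risen and all 405 fallen probe sets kept their sign, at a median of 0.83 and 0.795 of their change. Early factors that still rose were Fos (2.26, adjusted p = 0.0079 by limma), Klf10 (1.16, 8.9e-05), Nr4a1 (1.51), Klf4 (1.27) and Egr2 (1.49), and Sgk1 (1.89), Per1 (1.35), Errfi1 (1.00), Cebpd (0.91), Rgs2 (1.09), Nr1d2 (0.79), Bhlhe40 (0.84) and Gad1 (0.39) also passed. Sox18 (-1.05) and Lyl1 (-1.04) still fell, whereas Lamp1 (-0.54, adjusted p = 0.058 by limma), Smarca4 (-0.71, 0.067) and Eng (-0.53, 0.11) did not pass. With a term for 6 weeks against older in place of weeks, 9 probe sets rose and 0 fell. Klf10 (1.22), Fos (2.26) and Nr4a1 (1.53) passed in that fit, while Sgk1 (1.61, adjusted p = 0.058 by limma), Klf4 (1.23, 0.058), Errfi1 (0.92, 0.058), Rgs2 (0.97, 0.076), Gad1 (0.36, 0.10), Per1 (1.12, 0.12), Nr1d2 (0.68, 0.14), Bhlhe40 (0.66, 0.21), Sox18 (-0.93, 0.058) and Lyl1 (-0.84, 0.12) did not. A fit restricted to mice of 7 weeks or older leaves untreated mouse 5 as the only untreated alpha7 +/T animal. In that fit the change was 1.04 for Wdr92, 1.12 for Klf10, 2.01 for Sgk1 and 1.26 for Nr4a1, near their values in the main fit. It was 1.00 for Fos, against 2.52 in the main fit. Other genes kept less: 0.34 for Eif1a (1.05 in the main fit), 0.21 for Pag1 (1.07), 0.13 for Vps35 (0.74) and -0.25 for Smarca4 (-0.96).

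A difference by age was measured in untreated wild-type and beta4 null mice, which are in neither group of the alpha7 +/T contrast. Among the untreated wild-type mice, all those of 6 weeks have titles that begin with LT and all older ones titles that begin with B4. Age and title prefix therefore cannot be told apart there, and every value in this paragraph carries that limit. Among the untreated beta4 null mice only mouse 1 was 6 weeks old. Between 6 weeks and older (11 arrays) 0 probe sets (0.0%) passed by limma, and 761 had an unadjusted p under 0.05. Across all 7350 probe sets the correlation of this difference with the seizure response was -0.34 (Spearman -0.29); probe sets share arrays and are not independent, and this is a description. Risen probe sets were lower at 6 weeks in 72.4% of cases, against 51.8% of all, and fallen ones were higher at 6 weeks in 77.5%, against 48.2% of all. With age as a term the correlation was -0.02. That term was estimated in part from these same untreated mice, so the fit in part fixes this value. The differences, none of which passed, were -0.32 for Fosb, -0.15 for Klf10, -0.10 for Per1, -0.06 for Sgk1, -0.04 for Fos, 0.05 for Junb, 0.09 for Nr4a1 and 0.10 for Egr1. They were 0.71 for Ube2s, 0.57 for Eng and 0.38 for Lamp1.

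**Figure D3:**
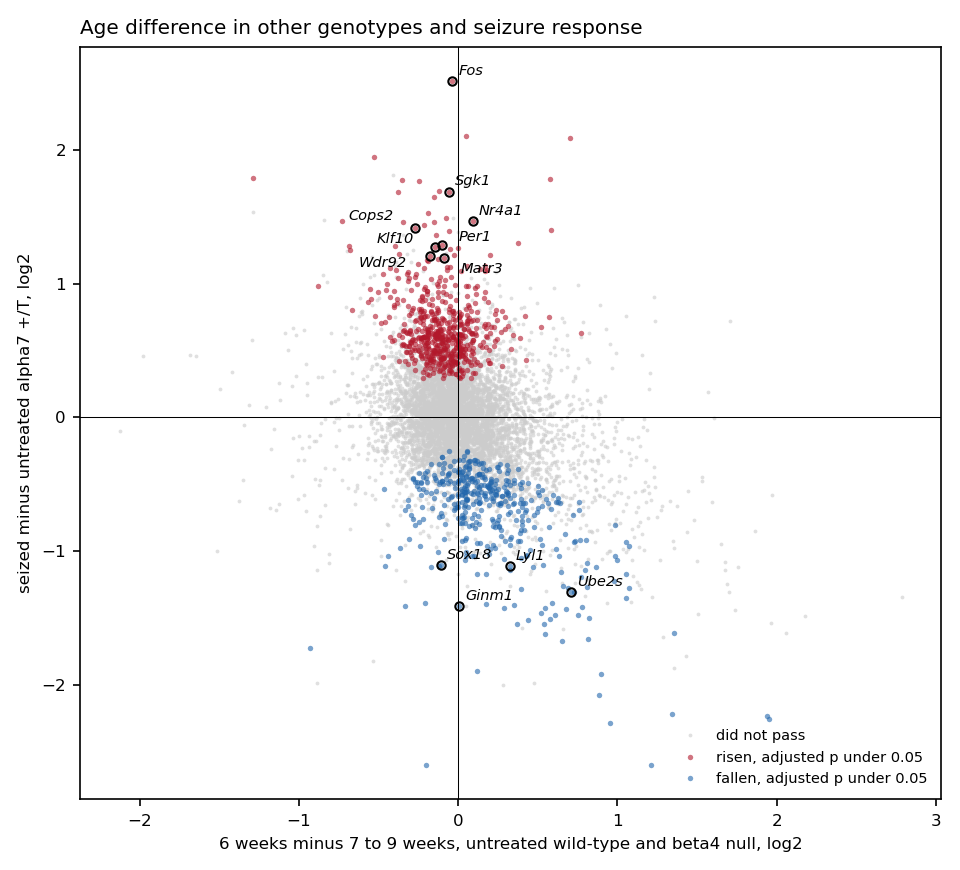
Seizure response of 7350 probe sets in alpha7 +/T mice (y axis, log2) against the difference between 6-week-old and older untreated mice of the other genotypes (x axis, log2); red risen, blue fallen, grey did not pass. Risen probe sets lie mostly left of 0 and fallen ones mostly right of it (correlation -0.34 over all), with Fos, Sgk1 and Nr4a1 near the vertical line.

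The number of probe sets that passed differed widely between the classes. Within low-class arrays (3 seized, 2 untreated) 703 probe sets passed (9.56%; 530 risen, 7.21%, and 173 fallen, 2.35%), and within high-class arrays (2 seized, 3 untreated) 87 passed (1.18%; 38 risen, 0.517%, and 49 fallen, 0.667%). These classes also differ in age: no low-class untreated mouse was 8 weeks old, while the high class holds mouse 5. Without mouse 5 the numbers were 812 and 762. The responses correlated at 0.32 over 7350 probe sets (Spearman 0.38). Of the 573 risen probe sets 573 were positive in the low and 569 in the high class, a count that the choice of those sets in part fixes. Fos rose by 3.13 ± 0.46 in the low and 2.11 ± 0.46 in the high class, Klf10 by 1.39 ± 0.18 and 1.23 ± 0.18, Nr4a1 by 1.42 ± 0.35 and 1.57 ± 0.35 and Sgk1 by 1.74 ± 0.37 and 1.55 ± 0.37. None of these genes passed the test of the difference between classes.

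That test found 45 probe sets (0.612%), 42 of them (0.571%) with the higher response in the low class, and 21 of the 45 were among the 978. Without untreated mouse 1, 3, 4 or 5 the count was 29, 29, 94 or 18, and without seized mouse 1, 2, 4 or 5 it was 6, 25, 12 or 70. Matr3, an RNA-binding protein of the nuclear matrix, shows the pattern: 503, 322 and 508 in low-class seized mice, 60.3 and 93.9 in low-class untreated mice, and 42.3 to 79.2 in all high-class mice, seized or not. Its class difference was 2.51 ± 0.40 (adjusted p = 0.0035 by limma), and its other probe sets gave responses of 0.39 (adjusted p = 0.023 by limma) and 0.37 (0.41) over both classes. Btf3l4, a relative of a transcription factor subunit, read 327, 263 and 344 in low-class seized mice and 109 to 193 in the other 7, with a class difference of 1.64 ± 0.25. Cops2, a COP9 signalosome subunit, differed by 1.89 ± 0.36 and rose in the common fit (1.42 ± 0.27). Idi1, an isomerase of cholesterol synthesis, Sh3bgrl and Psmd10 differed by 1.24 ± 0.20, 1.36 ± 0.24 and 3.32 ± 0.64; none of the 3 passed in the common fit. Psmd10, a proteasome assembly factor, was dim, at 5.28 and 14.8 in the low-class untreated mice. Among the beta4 null mice, whose low and high classes each hold seized and untreated animals, the level on low-class minus that on high-class arrays was 2.48 for Matr3, 0.79 for Cops2, 0.65 for Btf3l4, 0.59 for Psmd10, -0.01 for Sh3bgrl and -0.51 for Idi1 (log2, a difference in level and not in response, with no test). In the alpha7 +/T mice the part of the class in these responses cannot be told apart from that of the mice on those arrays.

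**Figure D4:**
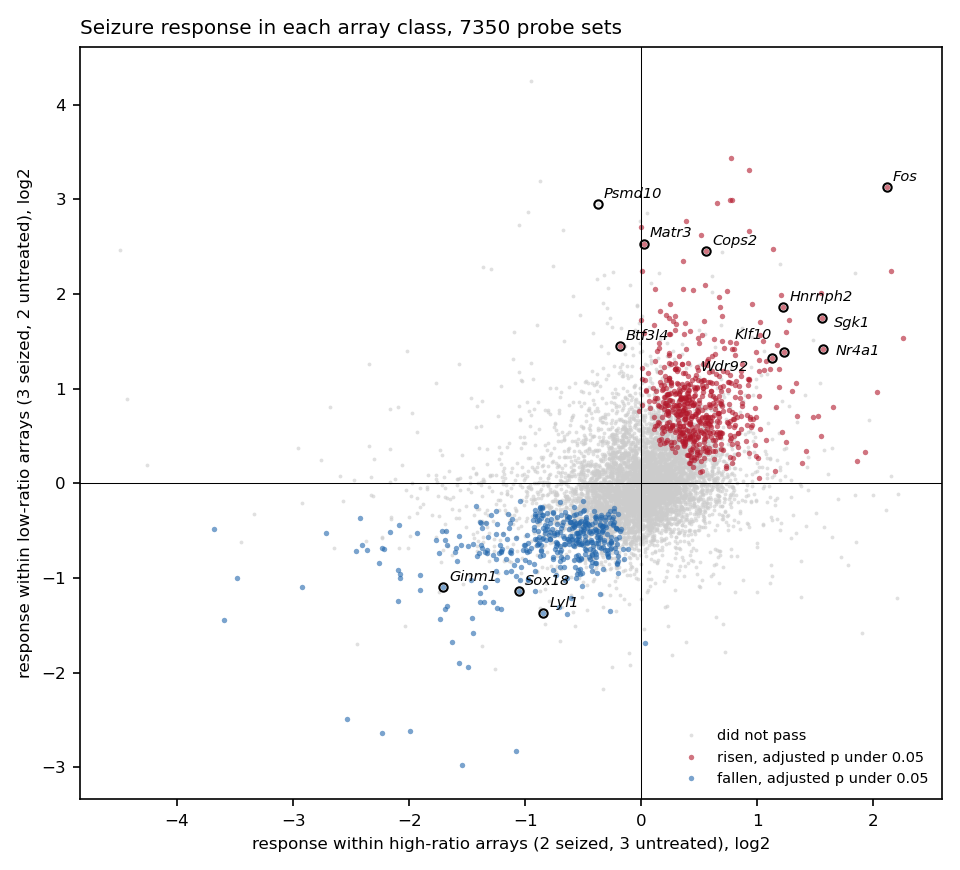
Seizure response within low-class (y axis) and high-class (x axis) arrays in log2, 7350 probe sets; red risen and blue fallen in the fit of both classes, grey did not pass. Fos, Klf10, Nr4a1, Sgk1 and Wdr92 are displaced on both axes, while Matr3, Btf3l4 and Psmd10 are high on the y axis alone.

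Set beside the other genotypes, some responses had like sizes, others were larger and others smaller in alpha7 +/T mice. Over all 7350 probe sets the alpha7 +/T response correlated at 0.21 with the wild-type one and at 0.006 with the beta4 null one. Median responses of the 573 risen probe sets were 0.61 (alpha7 +/T), 0.05 (wild-type) and -0.01 (beta4 null). Those of the 405 fallen ones were -0.62, -0.10 and 0.03. Both sets were chosen on the alpha7 +/T arrays, which in part fixes this gap. The Fos change of 2.52 stood beside 1.82 ± 0.39 for wild-type and 1.67 ± 0.37 for beta4 null animals, and Nr4a1 had 1.47, 1.52 ± 0.27 and 1.45 ± 0.25. Egr1 had 0.34, 0.73 ± 0.16 and 0.73 ± 0.15, and Junb had 0.60, 1.39 ± 0.32 and 1.07 ± 0.31. Against the mean of the other genotypes the difference was 0.77 ± 0.44 for Fos (adjusted p = 0.33 by limma) and -0.02 ± 0.30 for Nr4a1. It was -0.39 ± 0.18 for Egr1 (adjusted p = 0.24 by limma) and -0.63 ± 0.37 for Junb (0.34), so neither passed. Over the early factors the medians were 0.53, 0.61 and 0.70. The tests within wild-type and beta4 null mice called 5 (0.068%) and 4 (0.0544%) probe sets. Their groups were smaller, but the standard errors differed little. For Fos they were 0.35 (alpha7 +/T), 0.39 (wild-type) and 0.37 (beta4 null), and for Klf10 0.13, 0.15 and 0.14. Age nearly coincides with treatment among the alpha7 +/T mice, and its part in the gap between these counts was not tested.

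The test of the difference called 185 probe sets (2.52%), 128 higher (1.74%) and 57 lower (0.776%) in alpha7 +/T. Of these, 180 were among the 978, which rest on the same alpha7 +/T arrays. All 185 had the same sign against each of the other genotypes, a count that their choice by the mean of both in part fixes. Over all probe sets tested 12 passed against wild-type (0.163%) and 69 against beta4 null (0.939%), and 7 of the 185 passed against both. Klf10 gave the smallest p, with a wild-type response of 0.47 ± 0.15, a beta4 null response of 0.01 ± 0.14 and a difference of 1.04 ± 0.16 (adjusted p = 0.0031 by limma). Lamp2 differed by 1.40 ± 0.25, B3galt2, a galactosyltransferase, by 1.36 ± 0.25, Pag1 by 1.14 ± 0.21, Eif1a by 1.01 ± 0.19, the kinase of splicing factors Clk1 by 0.99 ± 0.18, the galectin-like gene Lgalsl by 0.91 ± 0.17 and Zfp644 by 0.64 ± 0.12. The clock genes Per2 and Nr1d2 differed by 1.29 ± 0.28 and 0.91 ± 0.20. On the other side were Anks3 (-1.40 ± 0.29), Kcnk1, a potassium leak channel (-1.27 ± 0.27), Hexa (-1.03 ± 0.17), Smarca4 (-1.03 ± 0.23), Esrra (-0.88 ± 0.19) and Bex1 (-0.88 ± 0.18). Age and array class were not balanced between genotypes, no wild-type array was of the low class, and with age as a further term 4 probe sets passed. The count also moved with single mice: it was 736 without alpha7 +/T untreated mouse 5, 31, 48, 108 and 111 without untreated mice 3, 4, 1 and 2, and 109, 118 and 114 without seized mice 1, 3 and 5. It was 311, 57 and 86 without wild-type untreated mouse 2 and seized mice 1 and 3, and 114, 121, 96 and 117 without beta4 null untreated mice 2 and 4 and seized mice 3 and 4.

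**Figure D5:**
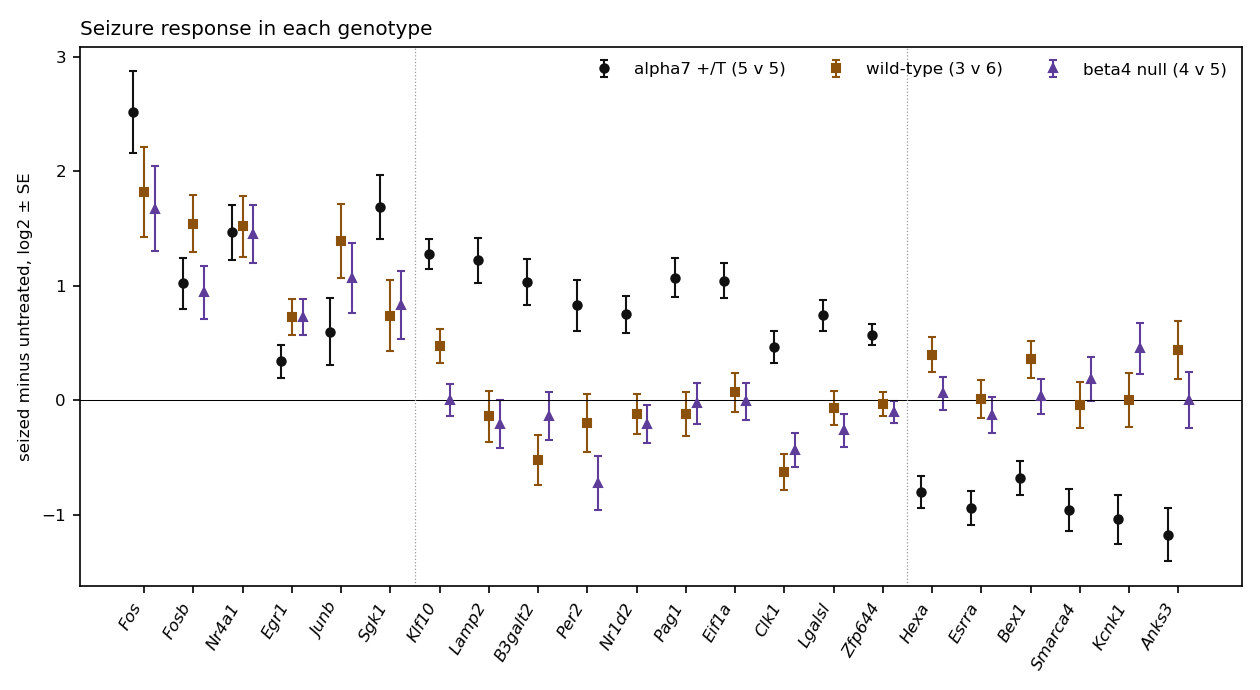
Seizure response of 22 genes in alpha7 +/T, wild-type and beta4 null mice (log2 ± SE from the fit with array class; numbers of seized against untreated mice in the key). Fos, Nr4a1 and Sgk1 lie above 0 in all genotypes, and the middle and right groups hold genes whose response differed in alpha7 +/T mice.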

How the data were processed

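Whole brain RNA of 28 mice was hybridised to 1 U74Av2 array each. The deposited values are linear MAS5 intensity values, per the submitters' processing notes, with a like trimmed mean on every array. They were used as log2 without further scaling. Of 12488 probe sets 66 were controls, and 7350 above their array's median on at least 3 arrays were kept. Gene names came from the platform annotation (10833 probe sets with 1 gene, 396 with several, 1193 unlisted), 10817 of them matched to RefSeq, and the brightest probe set stood for a gene in the lists. Limma 3.58.1 in R 4.3.3 fitted 6 group means with the Gapdh ratio class to all 28 arrays, with Benjamini-Hochberg adjustment over all probe sets. The procedure was tested on simulated data. No pair of arrays was identical, and each array is 1 mouse per the labels. Alternatives covered class, age, sex, scaling, filter, variance model and each mouse left out. Named genes were the 12 smallest adjusted p in each direction, the leading genes of the other tests, a short list of early genes and called list members. The members and lists were chosen with earlier results of these data known. Other genes, among them Egr2, Klf4, Atf3, Jund, Cldn5, Sox17, Acta2, Glul, Ddit4, Pdk4 and the pituitary hormones, were named after their values were seen.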

Additional observations from a re-analysis of the deposited data

Results flagged for a closer look

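In 4 of 150 groups of signals 1 mouse lay far from the rest, where chance gives about 1 in 20. Untreated mouse 5 had the lowest Smarca4 signal, 332, against 745 to 875 in the other untreated mice, and the lowest Bex1 signal, 182, against 314 to 377. Seized mouse 4 had the lowest Cacna1c signal, 101.1, against 147 to 170.1, and the lowest Eif3m signal, 209.7, against 358 to 432.

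The test of the difference from the other genotypes called 185 of 7350 probe sets (2.52%), and 4 with age as a further term. Many named genes were chosen by this test or by the alpha7 +/T response, so the choice in part fixes their share. For 34 of 75 named genes the seizure response in alpha7 +/T mice differed from the mean response of wild-type and beta4 null mice (limma, adjusted p from 0.0031 to 0.042). It was higher for Lamp2 (1.40), B3galt2 (1.36), Per2 (1.29), Hnrnph2 (1.23), Rgs5 (1.20), Pag1 (1.14), Klf10 (1.04), Eif1a (1.01), Sdcbp (1.01), Clk1 (0.99), Nr1d2 (0.91), Lgalsl (0.91), Kcnd2 (0.86), Psma2 (0.77), Ak4 (0.77), Vps35 (0.67), Zfp644 (0.64), Eif3a (0.56) and Hnrnpk (0.51). It was lower for Anks3 (-1.40), Ginm1 (-1.30), Kcnk1 (-1.27), Ube2s (-1.25), Smarca4 (-1.03), Hexa (-1.03), Dlg4 (-1.01), Esrra (-0.88), Bex1 (-0.88), Sox18 (-0.82), Lamp1 (-0.67), Rnf8 (-0.63), Stk16 (-0.62), Cacna1c (-0.60) and Gnao1 (-0.58). Second probe sets of Ak4 (0.14), Lamp2 (0.37), Eif1a (0.94), Kcnd2 (0.70), Rgs5 (1.82), Esrra (0.08) and Sox18 (-0.36) and the others of Gnao1 did not pass this test, while that of Klf10 (0.88) did.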

How the results depend on the processing

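Age nearly coincides with treatment among the alpha7 +/T mice, and 5 arrays a group set the precision. Probe sets passing for the seizure response, 978 as reported, were 206 without class, 13 on high-ratio arrays alone, 116 and 4 on the alpha7 +/T arrays alone with and without class, 11 in mice of 7 weeks or older, 84 with class and age in weeks, 9 with class and a term for 6 weeks, 631 with array weights, 557 and 496 with class and the Gapdh or beta-actin ratio, and 157 with class, age and sex. The other 10 alternatives gave 682 to 1256. For the difference from the other genotypes, 185 as reported, the counts were 6 without class and 421 with the Gapdh ratio in place of class. They were 4 with age, 18 with the 6-week term, 347 with sex, 62 with class and Gapdh ratio, and 19 with class, age and sex. Without filter 84 passed, without variance trend 102, and with array weights 295. With age as a term, 84 became 12 without class, 9 with the 6-week term, 132 after quantile normalization and 41 without filter. The class difference, 45, became 8 after median centring and 28 without filter. The cause of these moves was not tested. Leaving out each mouse in turn gave 502 to 1520 for the response, 31 to 736 for the difference between genotypes, 17 to 403 with age and 6 to 94 for the class difference.

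Chrna7 took the opposite sign without class (0.13, also on alpha7 +/T arrays alone), on high-ratio arrays (0.10), with age (0.049), with sex (0.13), with array weights (0.037) and with class, age and sex (0.19), and ranged from -0.41 to 0.23 when single mice were left out. On high-ratio arrays alone Btf3l4 (-0.19), Idi1 (-0.34), Sh3bgrl (-0.18) and Psmd10 (-0.37) changed sign. In mice of 7 weeks or older so did Clk1 (-0.050), Btf3l4 (-0.31), Matr3 (-0.30), Idi1 (-0.027), Sh3bgrl (-0.25), Slc12a2 (-0.19), Gabrb1 (0.14), Hnrnpm (0.033), Eif3m (-0.075) and the Hnrnph2 difference from the other genotypes (-0.013), and Gabrb1 (0.017) with the 6-week term. No paired analysis was possible because the replicate numbers only name the mice and the labels link no untreated mouse to a seized one.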
